A study of Homo sapiens with 6 samples.

Results

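The 10 genes described here encode the parts that tie the cell nucleus to the cytoskeleton and line it from inside. They are the nesprin genes SYNE1, SYNE2, SYNE3 and SYNE4, the SUN protein genes SUN1 and SUN2, the lamin genes LMNA, LMNB1 and LMNB2, and the emerin gene EMD. They were taken by gene name from a table of 58174 genes, and each name was found once. RNA was sequenced from PC9, a long-established line of human lung adenocarcinoma. In 3 knockdown libraries the cells had received an antagomir, a chemically modified antisense oligonucleotide, against tsRNA-5001a, a small RNA derived from a transfer RNA. In 3 control libraries they had received a negative control antagomir. All 6 libraries come from this 1 line, and no label tells whether those of a group were grown apart, so the spread between them, and every p, may be technical. The small RNA is not measured in the table, so its loss could not be checked. The list was chosen with the large difference of SYNE1 between these groups already known, so the members' differences are given as a description, with no test.

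SUN proteins sit in the inner nuclear membrane and nesprins in the outer one. They bind each other in the space between the membranes and form the LINC complex, the linker of nucleoskeleton and cytoskeleton. On the cytoplasmic side the giant nesprins bind actin, and the smaller ones reach intermediate filaments or microtubule motors. Lamins build the meshwork under the inner membrane, and emerin is an inner membrane protein that binds lamins. SYNE1 is known for its abundance in muscle and the nervous system, and for several promoters that give a giant protein and many shorter ones.

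Total gene counts were 32342017 to 40066223 per library. Levels are given as CPM, counts scaled to a common library total after TMM normalization. The 10 epithelial marker genes summed to 11470 to 14480 CPM after knockdown and 13410 to 14850 without it, and all 10 were tested, which matches the labelled cell type. Of 22 muscle markers, 13 stayed under 1 CPM in all libraries and 5 had no count at all (MYH1, MYH7, TNNT3, MYOD1 and MYF5), and the list summed to 346 to 431 CPM after knockdown against 408 to 465. Most of that sum was TNNT1, a slow muscle troponin gene, at 313 against 366 CPM, followed by MB at 39.0 against 36.5 and TTN at 23.1 against 20.4 CPM. Of 16 neuronal markers, 11 stayed under 1 CPM and some had no count, STMN2, GAP43, ELAVL4 and NEFM among them. The sums were 33.15 to 40.8 against 34.0 to 36.3 CPM. NEFH was the highest of them, at 20.4 against 19.7 CPM, with MAP2 at 6.67 against 5.95 and GRIN1 at 6.41 against 7.25 CPM. Of 14 blood and stromal markers 2, HBB and LUM, had no count, and the sums were 129 to 164 against 130 to 154 CPM. CD68 was at 64.3 against 62.0, COL1A1 at 45.1 against 41.0, CDH5 at 22.4 against 20.8 and PECAM1 at 12.2 against 9.81 CPM. Of all listed markers, tested or not, the groups did not overlap upward for CKM, for 4 neuronal genes (RBFOX3, SYT1, SLC17A7 and SNAP25) and for 3 blood and stromal genes (CD14, PECAM1 and DCN), and downward for MYH3. Over all genes tested, 13.4% did not overlap upward and 10.8% downward. None of the markers passed the test described below. The part of these levels in the results was not tested, and in bulk RNA fewer cells of a type and less RNA per cell cannot be told apart.

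SYNE1 has 4 start sites in the RefSeq promoters of GRCh38.p14. Of these, 2 are shown because the transcript length implied for SYNE1, described below, differed between the groups. Values were deposited per gene, so which start was used was not measured or tested. The upstream pair lie 0.472 kb apart at the 5′ end of the gene, and the other two lie 452 and 469 kb further in. The stretches run from 250 bases before to 50 after an upstream and an internal start, with the same stretch of VIP, the next tested gene upstream of SYNE1, which is described further on. Capitals mark matches, on either strand, to the following letters. The GC-box was searched as GGGCGG and the TATA box as TATAAA. The cAMP response element was searched in full as TGACGTCA, and by its core TGACG, which the full element contains. AP-1 sites were searched as TGACTCA and the E-box as CACGTG. The SYNE1 stretches are chr6:152636841-152637140 and chr6:152185362-152185661, both on the minus strand, and that of VIP is chr6:152750547-152750846 on the plus strand.
SYNE1, upstream start: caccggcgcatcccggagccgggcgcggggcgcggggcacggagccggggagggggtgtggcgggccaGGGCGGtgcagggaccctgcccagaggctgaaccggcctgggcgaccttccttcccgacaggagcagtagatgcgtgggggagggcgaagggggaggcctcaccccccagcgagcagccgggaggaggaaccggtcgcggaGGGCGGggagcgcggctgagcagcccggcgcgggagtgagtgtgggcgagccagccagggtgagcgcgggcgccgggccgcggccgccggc
SYNE1, internal start: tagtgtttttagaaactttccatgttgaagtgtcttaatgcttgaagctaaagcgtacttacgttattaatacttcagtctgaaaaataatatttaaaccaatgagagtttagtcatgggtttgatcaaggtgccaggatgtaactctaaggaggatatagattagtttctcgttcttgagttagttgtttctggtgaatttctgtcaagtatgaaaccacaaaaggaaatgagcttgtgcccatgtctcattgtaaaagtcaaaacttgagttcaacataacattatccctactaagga
VIP start: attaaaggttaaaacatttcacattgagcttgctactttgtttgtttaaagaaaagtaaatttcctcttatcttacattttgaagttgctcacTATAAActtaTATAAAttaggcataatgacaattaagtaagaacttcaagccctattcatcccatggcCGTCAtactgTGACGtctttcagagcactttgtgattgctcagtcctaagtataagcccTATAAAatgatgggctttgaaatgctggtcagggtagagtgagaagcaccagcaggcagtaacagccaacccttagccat
The upstream SYNE1 stretch shown held 37 CpG dinucleotides and 79.0% G and C, and the internal one 3 CpG and 34.3%, where the median over 35116 promoters was 14 CpG and 58.7%. The most upstream start, not shown, had 12 CpG, 51.7% G and C, no GC-box and the members' one TATA match, so the upstream pair are not alike. GC-boxes stood in 1 of the 4 SYNE1 stretches, in 14 of the 20 of the members and in 45.0% of all promoters. The VIP stretch held 2 CpG, 1 core on each strand and 3 TATA matches. The core was in 5 of the 20 stretches of the members and in 24.6% of all promoters, and a TATA match in 1 of the 20 and in 11.5%. The full element was in 0 of the 20 and in 1.85% of all promoters. AP-1 letters stood in 1 of the 20 and E-box letters in 1 of the 20, against 4.95% and 7.26% of all promoters. Promoters of 9 members were in the table; SUN1 was not matched.

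SYNE1 encodes nesprin-1, which joins the nuclear envelope to actin (ENSG00000131018; chromosome 6, 152121684 to 152637801, minus strand, coordinates matching GRCh38). It had 220, 225 and 354 counts in knockdown libraries 1 to 3 and 5, 6 and 9 counts in control libraries 1 to 3. Scaled, these were 5.81, 6.62 and 8.31 CPM against 0.134, 0.186 and 0.236 CPM. Every knockdown library lay far above every control library. The group means were 6.92 ± 1.28 and 0.185 ± 0.0510 CPM (SD, n = 3 each). The fitted log2 fold change was 5.20 ± 0.30 (SE), or 36.7-fold. It stayed between 5.0 and 5.41 on the log2 scale under 14 other settings, the omission of each library among them. The control value rests on 20 counts in all. The gene ESR1, described further on, overlaps SYNE1 by 7936 bases on the other strand. Since it is not known whether counting used strand, the counts of SYNE1 are uncertain.

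Of 19040 genes tested in the whole table, 53 had a log2 fold change as large as that of SYNE1 or larger, itself included. Of these, 6 had a mean of at least 1 log2 CPM, SYNE1 among them. SYNE1 spans 516 kb, and its mean was 1.86 log2 CPM. Among 489 tested genes with a body of at least 300 kb the median log2 fold change was 0.15, and among 1385 genes within 0.5 log2 CPM of SYNE1 it was 0.17, against 0.05 over all genes tested. In the first of these sets 2 genes reached the value of SYNE1, itself included, and in the second SYNE1 was the only one. The sets were chosen after the data were seen. The part of gene length, abundance or depth in the difference was not tested.

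**Figure D1:**
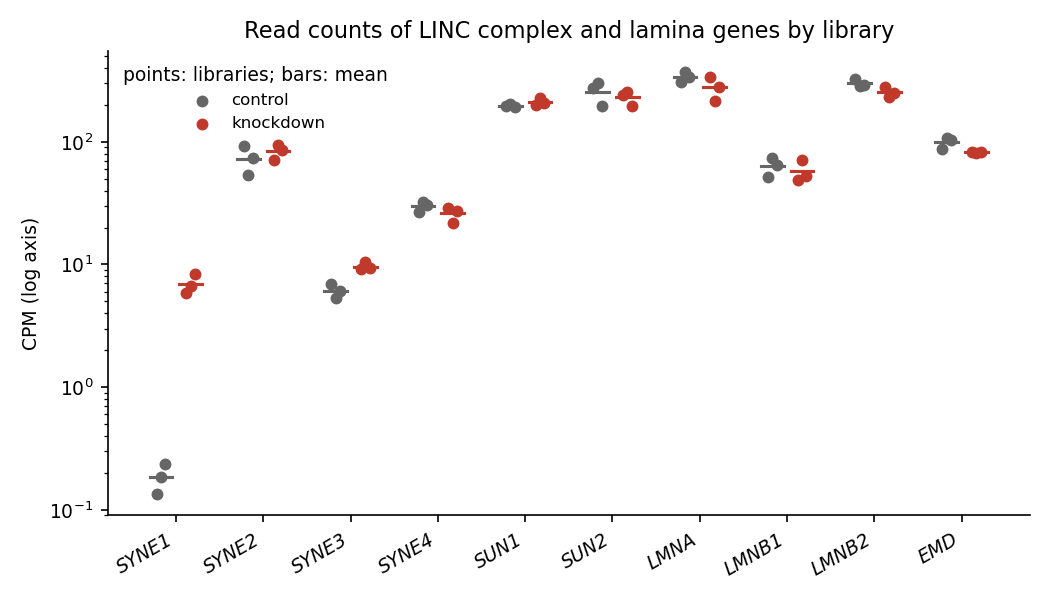
CPM of the 10 genes in each library on a log axis, with points for libraries and bars for the mean of 3. SYNE1 is at 5.81 to 8.31 CPM after knockdown and 0.134 to 0.236 CPM in the controls, while the groups of SYNE2, SYNE4, SUN1, SUN2, LMNA and LMNB1 overlap.

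SYNE2 encodes nesprin-2, the other giant actin-binding nesprin (ENSG00000054654; chromosome 14, 63852983 to 64226433). It stood at 71.4, 94.2 and 86.1 CPM after knockdown and at 92.4, 53.2 and 73.2 CPM in the controls. The groups overlapped, and the controls alone covered almost the whole range. The log2 fold change was 0.20 ± 0.21 (SE). The estrogen receptor gene ESR2 lies across 142202 bases of SYNE2 on the other strand, and since it is not known whether counting used strand, the counts of the pair are uncertain. ESR2 itself was low, at 0.503 against 0.111 CPM, with groups that did not overlap and an edgeR adjusted p of 0.0983.

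SYNE3 encodes nesprin-3, which binds the intermediate filament linker plectin (ENSG00000176438; chromosome 14, 95407266 to 95475836). It stood at 9.11, 10.45 and 9.28 CPM after knockdown and at 6.98, 5.30 and 6.07 CPM in the controls. All knockdown libraries lay above all controls. The group means were 9.61 ± 0.729 and 6.12 ± 0.840 CPM (SD, n = 3 each), a log2 fold change of 0.65 ± 0.17 (SE). It was the second highest difference among the members and stayed short of the threshold described below in each of the 15 fits.

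SYNE4 encodes nesprin-4, an epithelial nesprin that binds the motor kinesin-1 (ENSG00000181392; chromosome 19, 36003307 to 36008793). It stood at 29, 21.9 and 27.3 CPM after knockdown and at 27.0, 32.4 and 30.8 CPM in the controls. Knockdown library 2 was the lowest, and the groups overlapped. The log2 fold change was -0.20 ± 0.16 (SE).

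SUN1 (ENSG00000164828; chromosome 7, 816615 to 896435) encodes one of the main inner membrane anchors of nesprins. It stood at 199.7, 226 and 206 CPM after knockdown and at 196, 203 and 193 CPM in the controls. The groups overlapped slightly, with a log2 fold change of 0.09 ± 0.11 (SE). GET4 and the antisense gene AC073957.3 overlap SUN1, so its reads could have been shared. SUN2 (ENSG00000100242; chromosome 22, 38734725 to 38794143) encodes the other main anchor. It stood at 239, 257 and 197 CPM after knockdown and at 273, 300.5 and 194 CPM in the controls. Library 3 was the lowest in both groups, and the log2 fold change was -0.15 ± 0.18 (SE). DNAL4 overlaps SUN2 by 15636 bases on the same strand, and GTPBP1 by 3575 on the other, which makes its counts uncertain too.

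LMNA (ENSG00000160789; chromosome 1, 156082573 to 156140089) gives lamins A and C by splicing. It stood at 339, 216 and 278 CPM after knockdown and at 309, 371 and 339 CPM in the controls. Knockdown library 2 was the lowest, library 1 reached the control range, and the log2 fold change was -0.29 ± 0.17 (SE). LMNB1 (ENSG00000113368; chromosome 5, 126776623 to 126837020), which encodes a B-type lamin that keeps its lipid anchor, stood at 48.5, 71.5 and 52.4 against 51.2, 73.6 and 64.6 CPM. Its groups overlapped, with a log2 fold change of -0.14 ± 0.19 (SE).

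LMNB2, the other B-type lamin gene (ENSG00000176619; chromosome 19, 2427638 to 2456996), stood at 279, 233 and 250 CPM after knockdown and at 323, 286 and 290 CPM in the controls. All knockdown libraries lay below all controls, but the nearest pair, 279 and 286 CPM, was close. The log2 fold change was -0.24 ± 0.12 (SE). EMD (ENSG00000102119; chromosome X, 154379197 to 154381523) stood at 82.5, 81.3 and 83.0 CPM after knockdown and at 86.6, 108 and 103 CPM in the controls. Its groups did not overlap either, and its log2 fold change was -0.27 ± 0.12 (SE).

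In CPM, the groups of 2 of the 10 members did not overlap upward (SYNE1 and SYNE3) and of 2 downward (LMNB2 and EMD). Over all genes tested these shares were 13.4% and 10.8%. With edgeR's quasi-likelihood test and a Benjamini-Hochberg adjusted p of 0.05 as the threshold, 1 of 10 members was past it upward and 0 downward, where all genes gave 1.1% and 0.0735%. Since the members were chosen on this comparison, nothing is read from these counts. The median log2 fold change of the 10 was -0.14, and 4 of them were above 0. Over all genes tested the median was 0.05, and 55.9% were above 0.

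**Figure D2:**
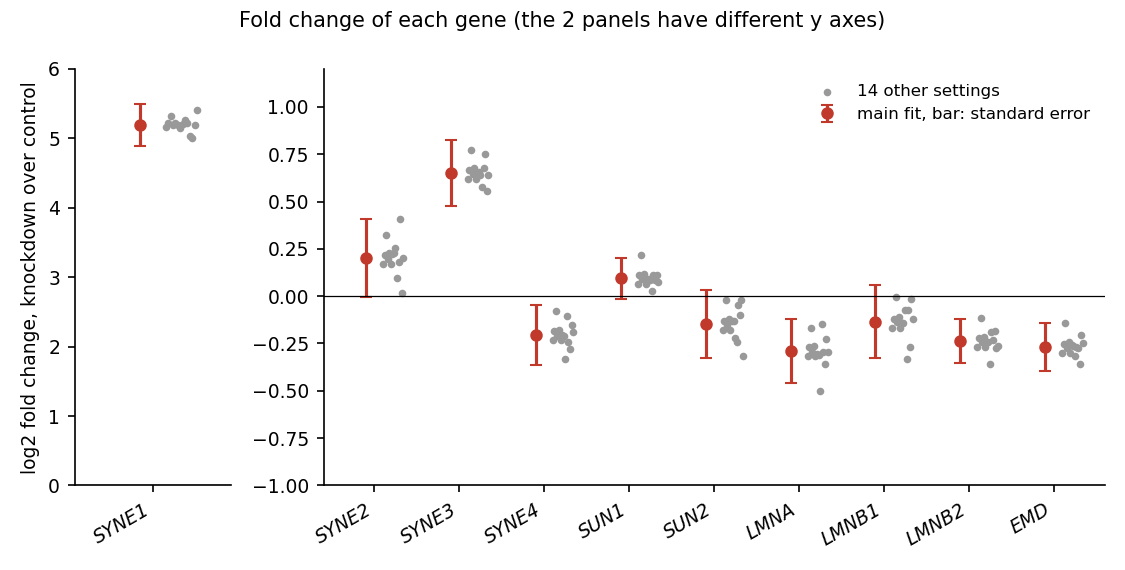
Log2 fold change of knockdown over control for each gene, with its standard error as a bar and the same value under 14 other settings as small points; the left panel has its own axis for SYNE1. SYNE1 is at 5.20, SYNE3 at 0.65, and the other 8 genes are between -0.29 and 0.20.

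Levels between genes can be compared only per length, for which the deposited TPM was used, a length-corrected share of all transcripts. In the control libraries LMNA was the highest at 215 ± 6.48 TPM (SD, n = 3). SUN2 followed at 147, EMD at 127, SUN1 at 105, LMNB2 at 102, LMNB1 at 44.2 and SYNE4 at 43.1 TPM. SYNE2 was at 17.4 ± 4.63, SYNE3 at 0.745 ± 0.108 and SYNE1 at 0.0101 ± 0.00259 TPM. The library ranges of SUN2 and EMD, of SUN1 and LMNB2, and of LMNB1 and SYNE4 overlapped, so these neighbours in the order did not differ beyond their spread. The ranges of the other neighbours did not overlap.

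SYNE4 thus made up most of the nesprin TPM in PC9 cells, with 70.6% ± 5.935 in the controls and 64.9% ± 10.3 after knockdown. SYNE1 made up 0.0165% ± 0.00386 in the controls and 1.503% ± 0.230 after knockdown. SYNE1 remained the lowest of the nesprins in TPM after knockdown, at 0.969 ± 0.209 against 2.13 ± 0.687 for SYNE3. The summed TPM of the nesprins was 64.0 ± 3.98 after knockdown and 61.3 ± 5.07 in the controls, with overlapping groups. For the lamins the sums were 368 ± 62.0 and 361 ± 11.7 TPM, also overlapping. The SUN sums were 290 to 333 TPM after knockdown and 213 to 289 in the controls. These groups did not overlap, by a narrow margin. Among all single genes tested, 27.0% did not overlap upward in TPM and 2.95% downward. In CPM, the groups of SUN1 and of SUN2 overlapped.

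**Figure D3:**
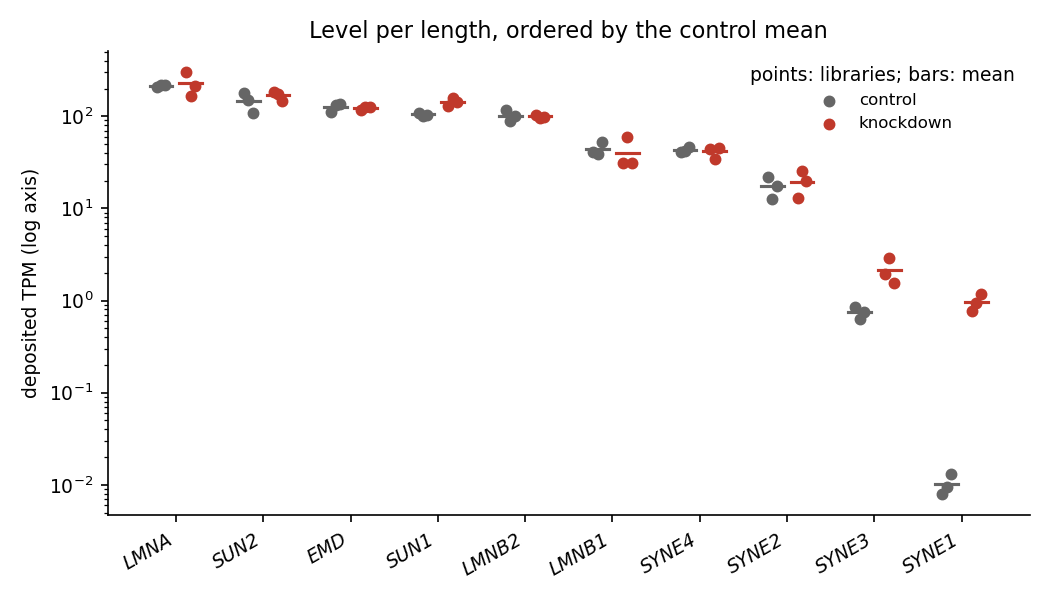
Deposited TPM of each gene by library on a log axis, ordered by the control mean, with bars for the mean of 3. The order runs from LMNA at 215 TPM to SYNE1 at 0.0101 TPM in the controls.

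TPM and counts gave different sizes for the same genes. SYNE1 was 96.0 times higher after knockdown by the ratio of mean TPM and 37.4 times by the ratio of mean CPM. SYNE3 was 2.86 times higher by TPM and 1.57-fold by counts. SUN1 was at 130, 158 and 144 TPM against 110, 101.2 and 103 TPM, which did not overlap, although its CPM did. In TPM 3 members did not overlap upward (SYNE1, SYNE3 and SUN1) and 0 downward. For TPM, 27.0% of all genes tested did not overlap upward and 2.95% downward.

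The gap between both units was followed through the length that each library's count and FPKM (fragments scaled by transcript length and library size) imply. For 723 genes with 1 annotated transcript, this implied length was within 2% of the annotated one in 98.6% of values. For genes with several transcripts it varied with the library. SYNE1 had implied lengths of 13049, 13358 and 12821 bases in knockdown libraries 1 to 3 and of 27990, 28331 and 29007 bases in control libraries 1 to 3. The control values lay slightly above the longest of its 40 GENCODE transcripts, which has 27748 bases, and all knockdown values far below it. The means were 13.1 ± 0.270 and 28.4 ± 0.517 kb (SD, n = 3 each), a ratio of 0.460. The controls rest on 5 to 9 counts each. How the authors formed a gene's FPKM from its transcripts is not known here.

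SYNE3 showed the same direction, at 8192, 6872 and 10898 bases after knockdown against 13495, 11991 and 12976 in the controls. SYNE2 went the other way, at 9603, 7000 and 7953 against 6958, 6062 and 6617 bases, with groups that just failed to overlap. SUN1 was at 2.67 ± 0.0562 against 2.94 ± 0.0455 kb, shorter in every knockdown library. So 3 of the 10 members were shorter in every knockdown library and 1 longer, and the implied lengths of the other 6 overlapped between the groups. Among 14640 genes with several transcripts and a value in every library, 7.37% were shorter in every knockdown library and 4.4% longer. Only 16 of them, SYNE1 included, had a ratio of lengths as low as that of SYNE1 or lower. Of 49 genes with under 10 counts in every control library, 12 were shorter and 2 longer. The part of low counts in these lengths was not tested.

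**Figure D4:**
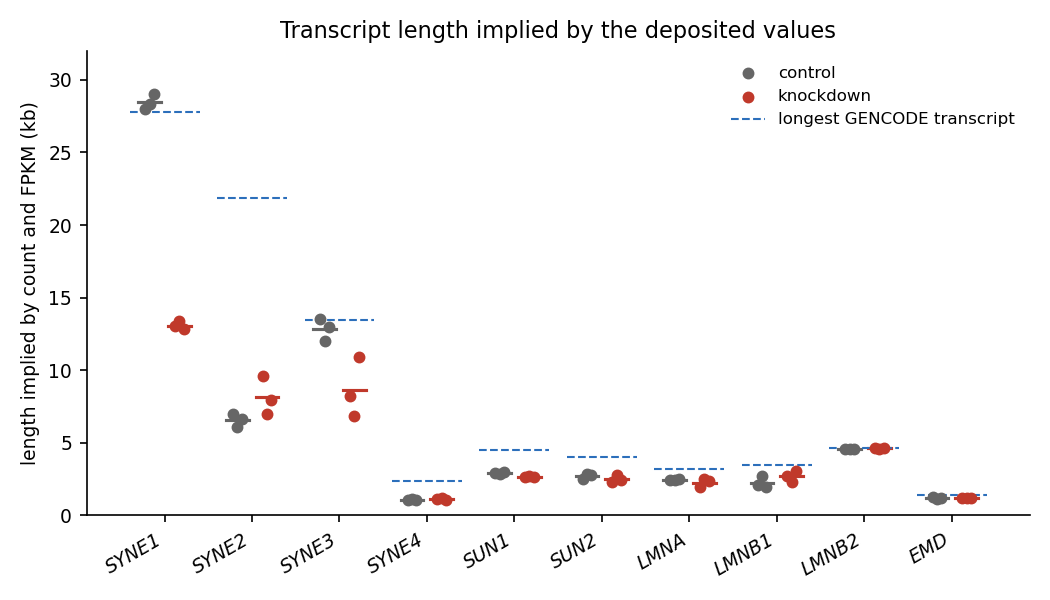
Length in kb implied by the deposited count and FPKM of each gene, by library, with bars for the mean of 3 and a dashed line at the longest GENCODE transcript. SYNE1 is near 13 kb in the 3 knockdown libraries and at a mean of 28.4 kb in the 3 controls.

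Genes around SYNE1 were then compared, with the test across all genes. Within 1 Mb of its body the table lists 36 other genes, of which 21 had a count and 12 were tested. VIP, the gene of the vasoactive intestinal peptide, rose past the test and none of the 12 fell past it (edgeR's quasi-likelihood test, Benjamini-Hochberg adjusted over all genes). VIP (chromosome 6, 152750798 to 152759765, plus strand) starts 113 kb upstream of SYNE1 and is read away from it. It had 13, 48 and 37 counts in the knockdown libraries and 0 counts in all 3 controls. Of all genes tested, 1.1% rose past the test and 0.0735% fell past it. The filter kept VIP through the knockdown group alone, so VIP could only have been called upward. Taking 3 counts over the whole control group as the floor, it was at least 30.8-fold higher, a bound for counting error only (edgeR adjusted p 0.0439). By edgeR the adjusted p was 0.129 without knockdown library 2 and 0.131 without knockdown library 3. It was 0.0960, 0.102 and 0.09735 without control libraries 1, 2 and 3. VIP passed without knockdown library 1, at an edgeR adjusted p of 0.0443. Over 13 alternatives the adjusted p ranged from 1.53e-05 with DESeq2 to 0.142.

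The gene on the other side that overlaps the end of SYNE1 is ESR1, the estrogen receptor alpha gene, on the opposite strand. The overlap makes the counts of both genes uncertain. ESR1 stood at 6.58, 9.86 and 2.23 CPM after knockdown and at 6.58, 5.02 and 5.84 CPM in the controls. Its log2 fold change was 0.09 ± 0.44 (SE). ARMT1, the nearest tested gene beyond it at 652 kb, had a difference of -0.40 in log2 CPM (edgeR adjusted p 0.540). FBXO5, a cell cycle regulator gene 333 kb upstream, had -0.11 (edgeR adjusted p 0.845). The antisense gene SYNE1-AS1 had 0 counts in every library. The groups of 2 of the 12 neighbours did not overlap upward, VIP and AKAP12, where 13.4% of all genes tested did not, and AKAP12 had an edgeR adjusted p of 0.216. The median log2 fold change of the 12 was 0.19.

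**Figure D5:**
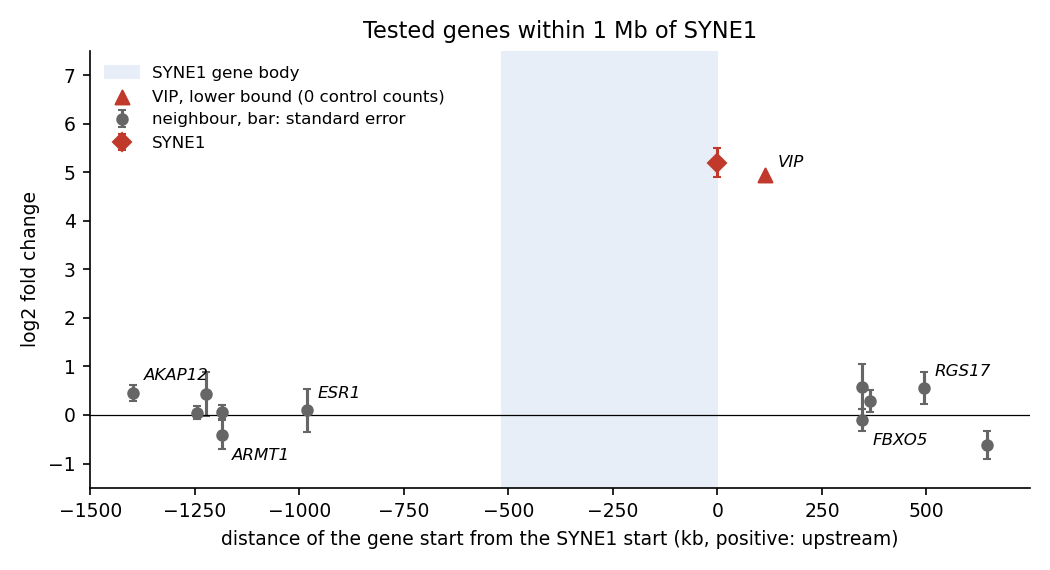
Log2 fold change of the 12 tested genes within 1 Mb of SYNE1 against the distance of their start from the SYNE1 start in kb, with standard errors as bars. SYNE1 is at 5.20 and VIP is drawn at its lower bound of 4.94, while the other 11 lie between -0.62 and 0.58.

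Tested genes of at least 1 log2 CPM were compared with SYNE1, leaving out those with a clone name as symbol, which gave 12963. The genes whose CPM followed SYNE1 most closely over the 6 libraries were sought by Euclidean distance of centred log2 CPM. In order they were ARC, an immediate early gene (distance 0.643), a U1 small nuclear RNA copy (ENSG00000270722; 0.979), RFPL4A (1.31), the Notch ligand gene DLL4 (1.69) and INHBE, an inhibin subunit gene (2.19). DLL4 stood at 11.8, 8.18 and 12.5 CPM against 0.615, 0.279 and 0.916 CPM. ARC stood at 51.9, 39.0 and 53.9 CPM against 0.829, 1.24 and 1.204 CPM. Groups overlapped for neither gene, which followed from their choice by closeness to SYNE1. The U1 copy and RFPL4A have near-identical copies in the genome, so their counts are uncertain. None of the 5 belongs to the nuclear envelope lists below. The highest log2 fold change in those lists was 1.19, so this too followed from the choice.

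Other genes of the nuclear envelope and of nesprin partners, in 8 lists with 123 tested genes, were read from the test over all genes. With edgeR 0 of the 123 passed upward and 0 downward, where all genes tested gave 1.1% and 0.0735%. At an unadjusted p under 0.05 there were 1 higher and 13 lower of 123, where all genes tested gave 9.77% higher and 6.71% lower. DESeq2 called 0 higher and 1 lower (CHMP4A), against 2.54% and 1.15% of all genes, and limma-voom called 0, against 1.09% and 0.0683%. The median log2 fold change was -0.04, and 117 of the 123 lay within 0.5 of 0. The median standard error was 0.16 on the log2 scale. Groups did not overlap upward for 5 and downward for 19 of the 123, against 13.4% and 10.8% of all genes tested.

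Of the other KASH and SUN genes 3 were tested and 0 passed. SPAG4, a SUN family gene, was at 11.7 ± 2.23 against 10.7 ± 0.425 CPM. SUN3, known from the testis, was at 2.28 ± 0.638 against 0.998 ± 0.269 CPM (log2 fold change 1.19, edgeR adjusted p 0.138). Among 7 torsins and cofactors, the ATPases and activators of the space between the membranes, 0 passed and 6 were below 0. TOR1A, whose product acts on LINC complexes, was at 66.1 ± 4.115 against 75.7 ± 2.72 CPM (log2 fold change -0.20). TOR4A had a log2 fold change of -0.07.

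Of 17 other inner membrane genes 0 passed, with a median log2 fold change of -0.01. TMEM43 was at 133 ± 8.06 against 136 ± 5.15 CPM, and ANKLE2 at 144 ± 5.55 against 125 ± 10.4 CPM. Of 9 genes of lamin processing and lamina binding 0 passed, with a median of -0.07. ICMT, the enzyme that methylates the processed lamin end, had a log2 fold change of -0.24 ± 0.24 (SE), and PRKCA had 0.06. Of 32 nuclear pore genes 0 passed and 9 were above 0, with a median of -0.11. NUP210, a membrane nucleoporin gene, was at 275 ± 48.9 against 346 ± 46.5 CPM, and NUP62, of the central channel, at 152.5 ± 18.6 against 196 ± 8.67 CPM (edgeR adjusted p 0.224).

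Of 20 cytoskeletal partners of nesprins 0 passed, with a median of -0.03. The actin gene ACTB had a log2 fold change of -0.29, at 0.280 by edgeR's adjusted p, and the actin crosslinker gene FLNA one of -0.03. SYNE1 belongs with the spectrin-repeat genes. In the list drawn up for these, which also holds the dystrobrevin gene DTNB, 21 others were tested and 0 passed. The median was 0.03, with values from -0.31, that of DTNB, to 0.43. ACTN4 and ACTN1, which crosslink actin, had log2 fold changes of -0.18 and -0.05. Of 15 genes of membrane sealing by ESCRT 0 passed, and CHMP4B and CHMP2A had log2 fold changes of -0.07 and -0.16. Groups of the sealing genes did not overlap downward for 4 of the 15 and upward for 1, CHMP6, at 14.2 ± 1.57 against 12.1 ± 0.650 CPM, beside 10.8% and 13.4% of all genes.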

How the data were processed

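Per the labels' protocols, the authors sequenced on an Illumina platform, mapped quality-controlled reads to a genome and counted them per gene. Which aligner, counter and strand setting they used is not stated in these sources. The authors deposited raw counts per gene beside TPM and FPKM. The submitters' processing notes name hg19, but among 57881 genes that GENCODE 29 (GRCh38) also holds, 96.8% stand at identical coordinates, 9 of the 10 members among them; SYNE4 differed in 1 end. Printed coordinates are the table's.

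The members and lists were chosen with earlier results of these data known. Genes were kept by filterByExpr (minimum count 10), scaled by TMM and tested over 19040 genes with edgeR's quasi-likelihood F-test (edgeR 4.0.16, R 4.3.3), adjusted by Benjamini-Hochberg at 0.05. Standard errors were back-calculated from the F statistic. The fit was tested on simulated data. No libraries were merged, since pairs within a group had a chi-square of 32.7 to 83.5 per degree of freedom. Implied lengths are count over FPKM, scaled in each library on genes with 1 GENCODE transcript and at least 200 counts; this step, and the sets of long and of equally abundant genes, were added after the data were seen. Named were all members, for each list up to 3 genes past the test or else the 2 of highest CPM, the neighbours past the test or nearest, and the 5 genes nearest in pattern; AKAP12, FBXO5, ESR2, CHMP4A, CHMP6, the named markers and genes of the closing section were chosen after their values were seen. Of the list symbols 3 were not in the table. Alternatives were DESeq2 1.42.0, limma-voom (limma 3.58.1), other scalings and filters, the replicate number as a block, a threshold of 0.01 and leaving out each library. Plots used Python 3.11.15 with matplotlib 3.10.9.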

Additional observations from a re-analysis of the deposited data

How the results depend on the processing

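SYNE1 was past the threshold under all 15 fits, and no other member under any. These fits draw on the 6 libraries on which SYNE1 was chosen, so they show steadiness to processing and are no new test. With 5, 6 and 9 control counts, SYNE1 met the main filter through the knockdown group alone. Of 140 recomputed member values, 136 moved by less than the SD between libraries; of the 4 others, 3 came with library size only (SUN1 0.22, LMNB2 -0.12, EMD -0.14) and 1 was LMNB2 without knockdown library 1, at -0.36. The members' median of -0.14 was -0.014 with library size only, a scaling that put all genes at 0.17 in place of 0.05, and ran from -0.16 to -0.0166 when a library was left out (-0.0166 without control library 2). Against 223 genes past the test (209 higher, 14 lower), no filter gave 147 and a stricter filter 143. Library size only gave 319 (310 higher, 9 lower), DESeq2 size factors 191 and upper-quartile scaling 229. DESeq2 gave 701 (483 higher, 218 lower), an adjusted p of 0.01 gave 45, and leaving out a library gave 64 to 114. The 123 envelope genes gave 0, but 1 with DESeq2 (CHMP4A) and 0 to 1 when a library was left out (1 without knockdown library 3). For the SYNE1 neighbours, the 1 call (VIP) became 0 with the stricter filter, which did not keep VIP, and 0 at an adjusted p of 0.01, and was 0 to 1 when a library was left out. With the replicate number as a block 34 genes passed, 0 neighbours did and the adjusted p of VIP was 0.142. Deviations of same-numbered libraries correlated at 0.0083, -0.079 and -0.026, and 0 of 6 libraries correlated best with their own number. No pairing by number was thus seen, but 3 libraries per group are too few to exclude it. The order of member levels kept 10 of 10 ranks with FPKM and 8 of 10 without any one control library. The causes were not tested.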

Other observations

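Of the 123 list genes, 6 differed by more than 0.5 on the log2 scale, none past the test, and they were picked out after their values were seen. The 4 higher after knockdown were SUN3, described above, DES, PLPP7 and IST1. The intermediate filament gene DES (log2 fold change 0.95, edgeR adjusted p 0.486) and PLPP7 (0.64, 0.502) stayed under 1 CPM in every library. IST1, an ESCRT gene, was at 144 ± 13.7 against 101.3 ± 43.6 CPM (0.51, 0.376), with overlapping groups. The other two were lower. CHMP7, which starts ESCRT assembly at the nuclear envelope, was at 29.4 ± 12.2 CPM after knockdown and 48.8 ± 2.20 CPM in the controls (SD, n = 3 each). It differed by -0.73 ± 0.26 (SE) on the log2 scale (edgeR adjusted p 0.223), and knockdown library 3, at 43.5 CPM, stood apart from the other two. CHMP4A, a subunit gene of the ESCRT filament, was at 19.7 ± 0.499 against 31.2 ± 6.73 CPM (log2 fold change -0.66, edgeR adjusted p 0.132). Smaller differences were also looked at. CHMP3 was at 86.2 ± 7.67 against 113 ± 7.82 CPM, and its groups did not overlap. In the pore list, 5 of the 32 genes were under an unadjusted edgeR p of 0.05. They were NUP188, NUP62, NUP85, NUP88 and NUP93, all lower after knockdown, with log2 fold changes from -0.43 to -0.28. Of all genes tested, 9.77% were higher and 6.71% lower at this threshold.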
